A study of Homo sapiens with 3 samples.

Results

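The genes described here encode subunits of voltage-gated potassium, sodium and calcium channels, of other potassium channels, and of the ionotropic receptors for glutamate, GABA and glycine. They were found by their symbols: names beginning with KCN, SCN, CACN, GRI, GABR or GLR in the series of these families, without antisense transcripts. Of 31113 symbols in the 3 gene lists, 167 were such members, and all 167 were matched in the GENCODE 29 annotation of GRCh38. Of these, 68 reached 5 counts in 1000000 (CPM) in at least 1 library, against 12612 of all 31113 symbols; the other 99 stayed under that level in all 3 libraries. The measured members nearest to the limit were GRIK3 and SCN4A, both at 5.09 CPM at their highest, and the nearest below it was CACNA1H at 4.89 CPM.

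The cells came from H9, an established human embryonic stem cell line that is pluripotent, grown in mTeSR and differentiated towards neural progenitor cells with the STEMdiff SMADi kit, which blocks SMAD signalling. There was 1 inDrop library for each of the labelled days 0, 2 and 6, so no difference between days has a check against replicates. The libraries carry the letters A, B and A, which no label explains. Kept cells numbered 2290, 2419 and 4180, with median depths of 8770, 3814 and 4429 unique molecular identifiers (UMIs) and 28341741, 20626135 and 41268018 UMIs in all. CPM is a gene's UMIs per 1000000 UMIs, both added up over a library's kept cells. It is not divided by gene length, so levels are compared between libraries and not between genes. Whenever 3 values stand together, they follow the labels in the order day 0, day 2, day 6. The intervals are exact 95% intervals for counting error alone. Pairs of libraries shared 38 (labelled day 0 and day 2), 82 (day 0 and day 6) and 72 (day 2 and day 6) barcodes among their kept cells.

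The marker genes went against the labels. The pluripotency factor POU5F1 stood at 2.22, 1229 and 268 CPM, and the neural progenitor factor PAX6 at 176, 6.64 and 27.9 CPM. The 8 pluripotency genes summed to 1154, 4216 and 2675 CPM and the 10 neural progenitor genes to 2035, 677 and 1757 CPM. The libraries are therefore named by their labels, and no difference between them is given as a change over time. Neuronal markers were low but present: the 12 genes of this list summed to 304, 201 and 413 CPM, of which the synaptic vesicle gene SYT1 gave 234, 102 and 212 CPM. The early neuronal genes DCX and STMN2 stood at 9.53, 6.74 and 59.9 CPM and 3.28, 7.85 and 41.9 CPM. TUBB3 had 0 UMIs in the day-0-labelled library, where 3 UMIs, the count used in place of 0, would be 0.106 CPM. The part of such cells in the levels below was not tested. Astrocyte, neural crest, mesoderm and endoderm lists summed to at most 28.7, 62.2, 2.52 and 13.6 CPM in any library. Fewer expressing cells and less RNA in each of them cannot be told apart in a summed level.

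Ion channels are pores in the cell membrane that pass potassium, sodium or calcium when the voltage, a bound ion or a bound ligand opens them. Potassium channels hold the resting voltage and end the action potential, sodium channels carry its rise, and calcium channels couple voltage to secretion, growth and transcription. Glutamate receptors mostly excite neurons, whereas receptors for GABA and glycine are chloride channels that inhibit mature neurons and can depolarise immature cells. Pluripotent cells and neural progenitors do not fire as neurons do, but in both the resting voltage and calcium entry are known to bear on proliferation.

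Promoter stretches are shown for 4 members with contrasting levels, because the series title concerns DNA methylation, which in mammals falls mainly on CG dinucleotides. Each line holds the 250 bases before the first start that RefSeq lists for the gene (GRCh38.p14), 5′ to 3′ on the strand of the gene, with every CG in capitals. GLRA2 (chrX:14529048-14529297, + strand) and GABRG3 (chr15:26970931-26971180, + strand) were highest in the day-0-labelled library. CACNA2D1 (chr7:82443957-82444206, - strand) was higher in both other libraries, and KCNA5 (chr12:5043629-5043878, + strand) was at 5 CPM or more only in the day-6-labelled one.
GLRA2: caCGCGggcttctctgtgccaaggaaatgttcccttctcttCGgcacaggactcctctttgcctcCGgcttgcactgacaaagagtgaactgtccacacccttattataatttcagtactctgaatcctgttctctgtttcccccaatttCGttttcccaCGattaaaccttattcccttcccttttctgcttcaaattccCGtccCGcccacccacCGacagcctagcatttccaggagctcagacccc
GABRG3: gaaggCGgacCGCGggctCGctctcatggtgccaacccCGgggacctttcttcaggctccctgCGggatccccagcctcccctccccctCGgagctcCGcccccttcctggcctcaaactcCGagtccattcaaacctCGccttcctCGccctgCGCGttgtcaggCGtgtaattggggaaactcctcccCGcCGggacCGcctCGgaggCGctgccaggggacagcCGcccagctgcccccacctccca
CACNA2D1: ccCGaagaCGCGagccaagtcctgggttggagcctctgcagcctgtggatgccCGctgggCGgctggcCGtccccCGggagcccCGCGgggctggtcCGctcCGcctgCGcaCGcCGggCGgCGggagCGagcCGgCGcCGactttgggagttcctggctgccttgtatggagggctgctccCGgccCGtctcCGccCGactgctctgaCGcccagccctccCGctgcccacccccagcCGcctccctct
KCNA5: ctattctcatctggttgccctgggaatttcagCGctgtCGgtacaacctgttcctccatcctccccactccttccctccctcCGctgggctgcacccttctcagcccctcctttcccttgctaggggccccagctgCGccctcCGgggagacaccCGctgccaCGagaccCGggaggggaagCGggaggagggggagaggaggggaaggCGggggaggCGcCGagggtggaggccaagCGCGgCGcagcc
These stretches held 9, 20, 27 and 15 CG dinucleotides in the order shown. Among the 68 measured members, 47 had an entry in the table, with a median of 20 CG dinucleotides over the same window. The median was 7.5 for 70 members under 5 CPM in every library, and 11 for all 27305 genes of the table. The letters GGGCGG, a GC box, stood on either strand in 36 of the 47 (76.6%), in 31 of the 70 (44.3%) and in 42.3% of all genes. Of the stretches shown, all but that of KCNA5 held it. These medians describe the members with an entry and were not tested, and single measured members had few, such as KCNK10 with 5. The 47 members were chosen by their level, and the 27305 genes were not. No value was taken for all genes at 5 CPM or more, so the contrast cannot be read as particular to channel genes.

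More members were higher than lower in the libraries labelled day 2 and day 6 against the day-0-labelled one. Of the 68 members, 25 were at least 2-fold higher in the day-2-labelled library than in the day-0-labelled one, or 36.8%, and 8 were 2-fold or more lower. Over all 12612 genes with 5 CPM in a library the shares were 11.7% higher and 10.6% lower. For labelled day 6 over labelled day 0, 29 members were higher and 6 lower, against 12.2% and 7.03% of all genes. Between the libraries labelled day 6 and day 2 the counts were nearer to each other, 14 higher and 11 lower, against 9.02% and 7.59% of all genes. The median log2 ratio of the members was 0.57, 0.16 and 0.68 in the ratios of day 2 to day 0, day 6 to day 2 and day 6 to day 0, in that order, and that of all genes was 0.02, 0.11 and 0.12. Day 2 over day 0 and day 6 over day 0 share the day-0-labelled library. Among kept cells with at most 10% mitochondrial UMIs, the counts for day 2 over day 0 were 22 higher and 13 lower, with a median log2 ratio of 0.01 for the members and -0.02 for all genes, against 12.1 and 16.7% of all genes. Under 5% mitochondrial UMIs, a stricter limit chosen after seeing the data, they were 25 and 10, with medians of 0.48 and -0.03, against 12.6 and 12.8% of all genes. For day 6 over day 0 the limit of 10% gave 26 and 7, with medians of 0.63 and 0.12, against 12.7 and 7.44% of all genes. In all deposited barcodes, day 6 over day 2 gave 14 higher and 14 lower, against 10.01% and 7.21% of all genes.

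The level in the day-0-labelled library was the lowest of the 3 for 38 of the 68 members, against 40.2% of all genes, and the highest for 10, or 14.7%, against 31.7% of all genes.

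Summed over all 167 members, the level was 1095 CPM in the day-0-labelled library, 1883 CPM in the day-2-labelled one and 1485 CPM in the day-6-labelled one. At least 5 CPM was reached by 43, 56 and 59 members, or 25.7, 33.5 and 35.3%, against 36.0, 36.9 and 37.0% of all symbols, and at least 50 CPM by 5, 7 and 7. Every member but CACNA1C-IT2, a transcript inside a calcium channel gene, had a UMI somewhere among the kept cells.

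**Figure D1:**
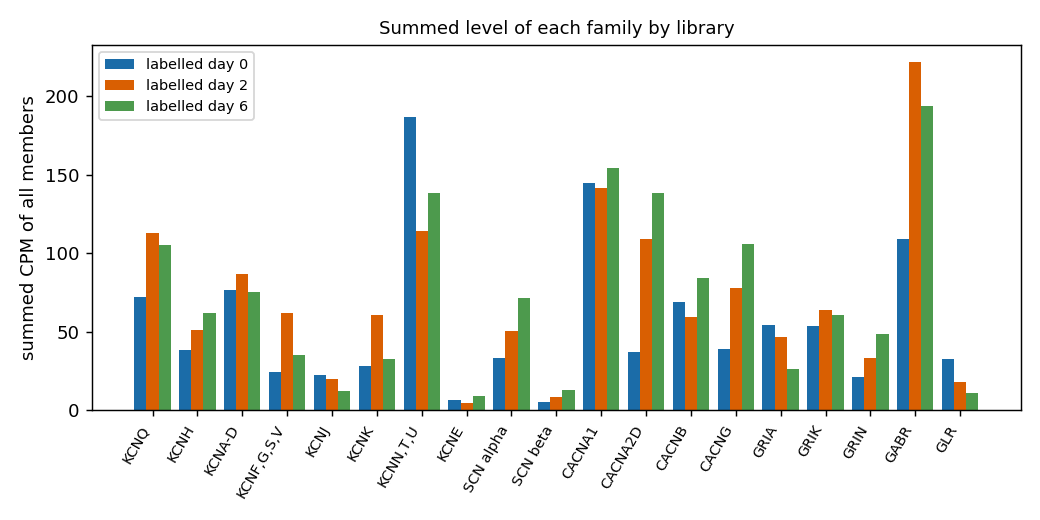
Summed CPM of all members of each family (vertical axis) in the libraries with labels day 0, 2 and 6 (bars), for 19 families. The ion-activated potassium channels (KCNN,T,U) are highest in the day-0-labelled library at 186 CPM, and the alpha2delta subunits (CACNA2D) in the day-6-labelled one at 139 CPM.

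The ion-activated potassium channels summed to 186, 114 and 139 CPM. KCNT2, which encodes the sodium-activated channel Slick and is found on chromosome 1 at 196225779 to 196609225, had 161, 73.9 and 73.6 CPM. The day-0-labelled library was thus above both others, which differed by little, and its counting interval did not meet theirs. KCNT2 was 2.18-fold lower (2.06 to 2.32) in the day-2-labelled library and 2.19-fold lower (2.09 to 2.30) in the day-6-labelled one. Among cells with at least 5% mitochondrial UMIs the first ratio was 0.557, short of 2-fold.

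The small-conductance calcium-activated channels, which dampen firing after calcium entry, did not share that order. KCNN2, on chromosome 5 at 114055545 to 114496500, had 5.61, 24.4 and 32.7 CPM, and was 4.35-fold higher (3.63 to 5.23) in the day-2-labelled library than in the day-0-labelled one and 5.82-fold higher (4.94 to 6.91) in the day-6-labelled one. KCNN3 had its lowest level in the day-2-labelled library, with 16.2, 7.18 and 25.2 CPM. KCNN1 stood at 1.66, 6.50 and 6.35 CPM, with nearly equal levels in the last pair. Its ratio of labelled day 2 to labelled day 0 was 3.92, but 1.42 among cells with under 5% mitochondrial UMIs. The other 3 members of these families, KCNN4, KCNT1 and KCNU1, reached at most 1.45 CPM.

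The Kv7 family, whose channels carry the slow M current of neurons, had 4 measured members of 5. KCNQ3, a subunit of that neuronal channel, stood at 6.10, 8.0 and 25.5 CPM and was 3.18-fold higher (2.70 to 3.77) in the day-6-labelled library than in the day-2-labelled one. KCNQ5 had another order, 4.09, 10.5 and 2.16 CPM, highest in the day-2-labelled library and 4.86-fold lower (3.78 to 6.29) in the day-6-labelled one. Among cells with under 5% mitochondrial UMIs the latter ratio was 0.550. KCNQ1, known for its cardiac current, stood at 3.53, 7.85 and 2.64 CPM. It shares 121 exonic bases with KCNQ1OT1 on the other strand, at 51.5, 26.1 and 39.9 CPM, and with no stated strand setting their reads may not be separable.

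In the KCNH family, which holds the EAG, ERG and ELK channels, 5 of 8 members were measured. KCNH2, the ERG channel of the heart, stood at 5.79, 9.11 and 15.6 CPM, and the EAG channel gene KCNH5 at 4.76, 6.59 and 17.6 CPM. Both were highest in the day-6-labelled library, by 1.71-fold and 2.67-fold over the day-2-labelled one. For KCNH5 this ratio was 1.17 among cells with under 5% mitochondrial UMIs. KCNH1, the other EAG gene, was highest in the day-0-labelled library with 6.70, 2.57 and 2.96 CPM. It was 2.61-fold lower (1.92 to 3.61) in the day-2-labelled library than in the day-0-labelled one. KCNH8 and KCNH7 stood at 11.4, 21.2 and 12.6 CPM and at 8.26, 8.48 and 10.6 CPM.

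Of the 15 Kv1 to Kv4 genes, which encode delayed rectifiers and transient A-type channels, 5 were measured. KCND2, the A-type channel Kv4.2, stood at 50.3, 56.1 and 32.1 CPM. Its level in the day-6-labelled library was 0.638 (0.592 to 0.688) times the day-0-labelled one. KCNC4 stood at 3.53, 10.1 and 9.50 CPM, lowest in the day-0-labelled library. KCNB2, the delayed rectifier Kv2.2, varied little over the libraries, at 7.09, 6.06 and 7.73 CPM. Among cells with under 5% mitochondrial UMIs it stood further apart, at 5.46, 1.17 and 1.90 CPM.

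KCNA5, the Kv1.5 channel of atrial and vascular muscle, had nearly all its UMIs in 1 library. It lies on chromosome 12 at 5043989 to 5046788 and had 8, 5 and 278 UMIs, or 0.282, 0.242 and 6.74 CPM. The ratio of labelled day 6 to labelled day 2 was 27.8 (11.8 to 86.3), and to labelled day 0 23.9 (11.9 to 55.8). The wide intervals come from the few UMIs of the other libraries. The classical neuronal genes KCNA1 and KCNA2 stayed at or below 0.606 and 1.07 CPM.

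Silent Kv subunits form no channel alone and alter Kv2 channels. Their 3 measured members, KCNG1, KCNG3 and KCNS3, were all highest in the day-2-labelled library. KCNG3, on chromosome 2 at 42442017 to 42494097, had 2.19, 19.2 and 13.0 CPM and was 8.75-fold higher (6.68 to 11.6) in the day-2-labelled library than in the day-0-labelled one. KCNG1 stood at 10.5, 20.6 and 6.18 CPM, which put the day-6-labelled library 3.33-fold lower (2.84 to 3.901) than the day-2-labelled one. KCNS3 stood at 8.997, 19.8 and 12.4 CPM.

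Tandem pore domain channels (KCNK) carry the leak current that sets the resting voltage. Of 15 members 5 were measured, and 4 of these were highest in the day-2-labelled library. KCNK1, which encodes TWIK1 and lies on chromosome 1 at 233614004 to 233672512, had 24, 444 and 355 UMIs, or 0.847, 21.5 and 8.60 CPM. The day-0-labelled library was lowest, and the day-2-labelled one was 25.4-fold higher (16.9 to 40.1). The related KCNK6 stood at 1.34, 10.5 and 2.30 CPM, KCNK5 at 3.81, 12.4 and 8.48 CPM and KCNK12 at 5.19, 8.29 and 6.45 CPM. KCNK10, the mechanically gated channel TREK2, was the exception with 12.5, 1.60 and 2.98 CPM: it was 7.81-fold lower (5.46 to 11.5) in the day-2-labelled library than in the day-0-labelled one.

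Inward rectifiers (KCNJ) were the family with the smallest measured share, 1 of 16. That gene, KCNJ14, stood at 6.32, 5.33 and 5.48 CPM, and part of its exons is shared with GRWD1 on the same strand. KCNJ13, under the 5 CPM limit, had 4.48 CPM in the day-0-labelled library, 0 UMIs in the day-2-labelled one, where 3 UMIs would be 0.145 CPM, and 0.218 CPM in the day-6-labelled one. Among the KCNE auxiliary subunits KCNE5 alone was measured, at 3.78, 2.18 and 6.71 CPM. Its single exon shares bases with ACSL4 on the same strand.

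**Figure D2:**
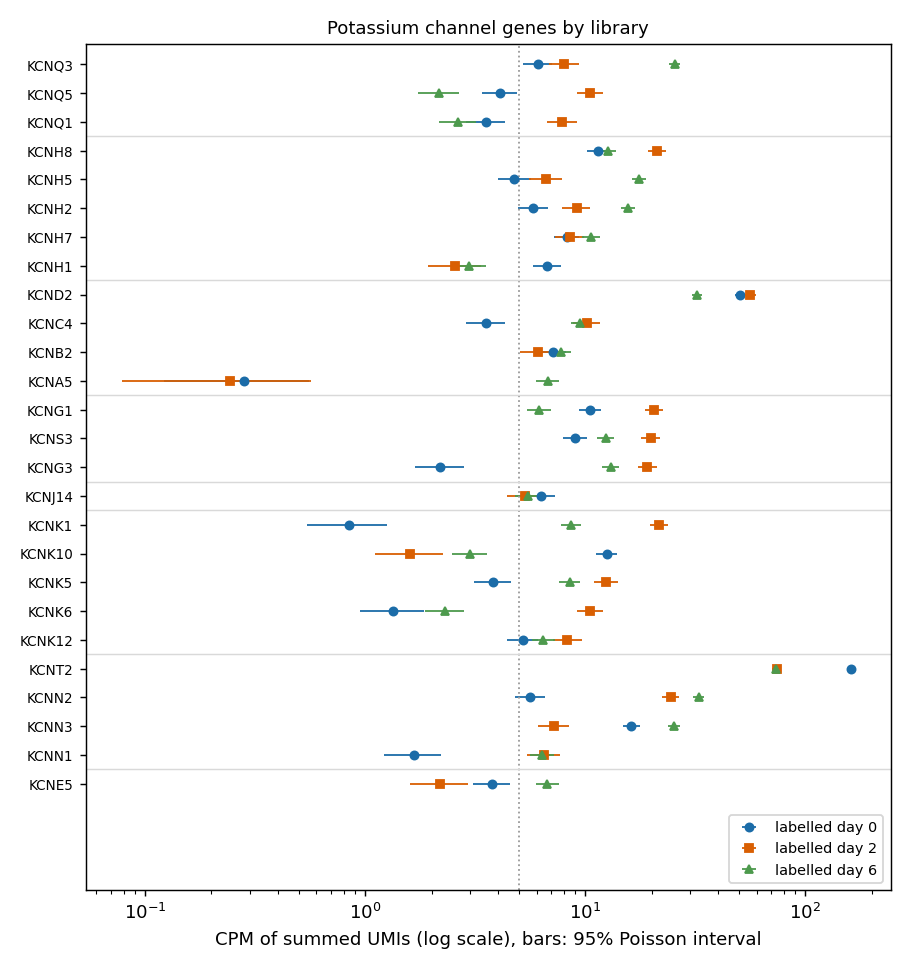
Levels in CPM (log scale) of 26 measured potassium channel genes, by family, in the libraries with labels day 0, 2 and 6, with exact 95% Poisson intervals; the dotted line is 5 CPM. KCNT2 is highest in the day-0-labelled library, KCNG1, KCNG3 and most KCNK genes in the day-2-labelled one, and KCNA5 in the day-6-labelled one.

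The sodium channel pores SCN8A and SCN4A were lowest in the day-0-labelled library and highest in the day-6-labelled one. SCN8A, the neuronal channel Nav1.6 on chromosome 12 at 51590266 to 51812864, had 21.8, 28.99 and 47.7 CPM and was 2.18-fold higher (1.99 to 2.39) in the day-6-labelled library than in the day-0-labelled one, but 1.95-fold among cells with at most 10% mitochondrial UMIs. The muscle channel SCN4A stood at 1.83, 3.35 and 5.09 CPM, and its Poisson intervals in the libraries labelled day 2 and day 6 were apart. The auxiliary subunit SCN4B had the same order with 1.73, 3.68 and 7.63 CPM. By contrast, the neuronal pores SCN1A, SCN2A and SCN3A stayed under 5 CPM, with SCN2A highest at 3.20 CPM in the day-6-labelled library.

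Calcium channel pores had about the same summed level in the 3 libraries, 144, 141 and 154 CPM, but single genes differed. CACNA1A, the P/Q-type channel of presynaptic terminals on chromosome 19 at 13206442 to 13633025, had 81.4, 48.6 and 61.2 CPM and was highest in the day-0-labelled library. CACNA1B (N-type) stood at 19.9, 34.9 and 32.1 CPM and CACNA1E (R-type) at 21.8, 26.2 and 20.9 CPM. The T-type channel gene CACNA1G, on chromosome 17 at 50561068 to 50627474, had 1.59, 3.30 and 20.6 CPM; it was 13.0-fold higher (9.61 to 17.9) in the day-6-labelled library than in the day-0-labelled one and 6.25-fold higher (4.88 to 8.12) than in the day-2-labelled one. The L-type genes CACNA1C and CACNA1D were highest in the day-2-labelled library, at 13.0, 15.7 and 8.02 CPM and 2.86, 5.77 and 4.31 CPM. CACNA1D shares exonic bases with CHDH on the other strand.

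The alpha2delta subunits carry calcium channels to the surface, and all 4 were measured. CACNA2D1, on chromosome 7 at 81946444 to 82443798, had 14.5 CPM (95% interval 13.1 to 16.0), 62.2 CPM (95% interval 58.8 to 65.7) and 74.2 CPM (95% interval 71.6 to 76.9). CACNA2D3 had the same order with 6.35, 30.7 and 36.4 CPM. These genes were 4.29-fold higher (3.84 to 4.81) and 4.83-fold higher (4.09 to 5.73) in the day-2-labelled library than in the day-0-labelled one. CACNA2D2 stayed within 2-fold, at 11.1, 15.1 and 17.4 CPM. CACNA2D4 was lowest in the day-2-labelled library, with 27 UMIs there and 5.47, 1.31 and 10.5 CPM.

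All 4 cytoplasmic beta subunits were measured. CACNB3 stood at 27.9, 18.04 and 41.5 CPM and was 2.30-fold higher (2.06 to 2.58) in the day-6-labelled library than in the day-2-labelled one. CACNB2 stayed within 2-fold with 33.5, 25.02 and 30.8 CPM. CACNB4 was highest in the day-2-labelled library, at 4.69, 12.2 and 3.47 CPM, and CACNB1 in the day-6-labelled one, at 2.75, 4.17 and 8.55 CPM. The order of CACNB4 turned among cells with at most 10% mitochondrial UMIs, where the ratio of labelled day 2 to labelled day 0 was 0.815. CACNG7 and CACNG8, gamma subunits that accompany AMPA receptors, stood at 29.9, 58.3 and 60.2 CPM and 4.20, 13.3 and 39.2 CPM. CACNG8 was 9.33-fold higher (7.74 to 11.3) in the day-6-labelled library than in the day-0-labelled one, and its 3 intervals did not meet.

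AMPA receptor genes, which carry fast excitation, differed in their highest library. GRIA1, on chromosome 5 at 153489615 to 153813869, had 27.9, 3.15 and 5.72 CPM and was 8.87-fold lower (6.88 to 11.6) in the day-2-labelled library than in the day-0-labelled one. GRIA4 stood at 9.99, 33.9 and 7.29 CPM, so here the day-2-labelled library was highest, and the day-6-labelled one was 4.65-fold lower (4.05 to 5.34). GRIA3 stayed within 2-fold with 15.4, 8.78 and 12.7 CPM. GRIA2, the subunit that makes most AMPA receptors of the brain impermeable to calcium, reached at most 0.873 CPM. GRID1, a glutamate delta receptor gene, stayed under 5 CPM, at 3.63, 4.12 and 4.68 CPM.

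Kainate receptors modulate transmitter release, and all 5 genes were measured, none at least 2-fold apart between the libraries labelled day 2 and day 0. GRIK5 stood at 18.9, 16.8 and 27.8 CPM, GRIK2 at 17.5, 26.3 and 11.7 CPM and GRIK4 at 12.5, 15.8 and 8.63 CPM. GRIK2 and GRIK4 were lowest in the day-6-labelled library. For GRIK2 its ratio to the day-2-labelled one was 0.446 (0.394 to 0.505), but 0.740 among cells with at most 10% mitochondrial UMIs. GRIK1 and GRIK3 were highest in the day-6-labelled library, at 3.14, 2.81 and 7.41 CPM and 1.76, 2.33 and 5.09 CPM. For GRIK1 the ratio of labelled day 6 to labelled day 2 was 2.64, but 1.42 among cells with under 5% mitochondrial UMIs.

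NMDA receptor channels need voltage and glutamate together to pass calcium. GRIN2A, on chromosome 16 at 9753404 to 10182754, had 4.09, 11.6 and 24.4 CPM and GRIN2B at 6.00, 8.0 and 15.3 CPM, both highest in the day-6-labelled library. GRIN2A was 5.96-fold higher (4.91 to 7.28) there than in the day-0-labelled library. GRIN2D was lowest in the same library, with 8.96, 10.04 and 5.28 CPM. For GRIN2B the ratio of labelled day 6 to labelled day 0 was 2.55. It was 1.99 among cells with at most 10% mitochondrial UMIs and 1.17 among those with under 5%. GRIN1, which every NMDA receptor contains, stood at 0.247, 0.679 and 0.242 CPM. The symbol GRINA also fits the naming rule but encodes a membrane protein that is no receptor subunit; its level was 21.8, 25.02 and 35.0 CPM.

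Of the 19 GABA-A receptor genes 5 were measured. GABRA5 and GABRG3, both on chromosome 15, differed in their highest library. GABRA5, at 1.38, 11.8 and 3.37 CPM, was 8.60-fold higher (6.11 to 12.4) in the day-2-labelled library than in the day-0-labelled one. GABRG3, on chromosome 15 at 26971282 to 27541991, had 33.8, 7.76 and 6.25 CPM and was 4.36-fold lower (3.69 to 5.19). In the day-6-labelled library 1 cell held 47 of its 258 UMIs, and the intervals for counting error do not cover such a spread. GABRA3 and GABRQ, both on the X chromosome, stood at 7.30, 8.48 and 16.0 CPM and 1.31, 5.87 and 5.38 CPM.

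Of the glycine receptor genes 2 of 5 were measured. GLRA2, the alpha2 subunit of embryonic neurons on chromosome X at 14529298 to 14731812, had 703, 164 and 88 UMIs, or 24.8, 7.95 and 2.13 CPM. All 3 intervals were apart, and the gene was 11.6-fold lower (9.31 to 14.7) in the day-6-labelled library than in the day-0-labelled one. The adult subunit GLRA1 stood at 2.82, 8.24 and 5.62 CPM, highest in the day-2-labelled library. Among cells with at most 10% mitochondrial UMIs its ratio of labelled day 2 to labelled day 0 was 0.987, and for GLRA2 the ratio of labelled day 6 to labelled day 2 was 0.640. GLRB, the beta subunit that anchors the receptor at synapses, stood at 3.28, 1.12 and 1.48 CPM.

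**Figure D3:**
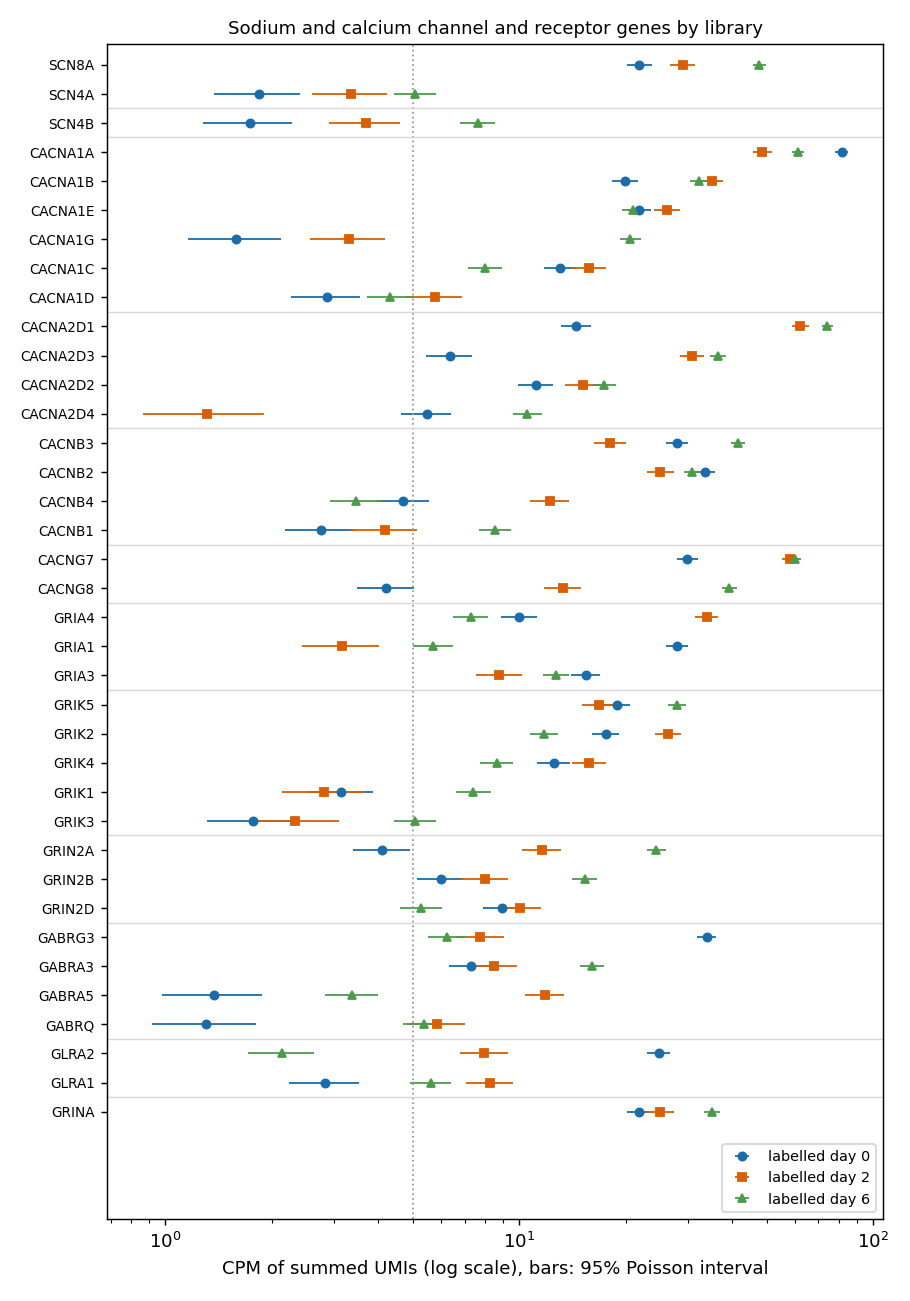
Levels in CPM (log scale) of 37 measured sodium channel, calcium channel and receptor symbols, by family, in the libraries with labels day 0, 2 and 6, with exact 95% Poisson intervals; the dotted line is 5 CPM. CACNG8, CACNA1G and GRIN2A are highest in the day-6-labelled library, and GLRA2, GRIA1 and GABRG3 are highest in the day-0-labelled one.

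Some genes were at least 2-fold higher in 1 library than in both others. This was so for 6 members in the day-0-labelled library (8.82%, against 4.21% of all genes), 8 in the day-2-labelled one (11.8% against 4.92%) and 10 in the day-6-labelled one (14.7% against 3.54%). Lower than both others by 2-fold or more were 17, 2 and 1 members, against 5.95, 3.62 and 1.63% of all genes. In the plot of the libraries labelled day 2 and day 0, the members above the upper dotted line came from potassium, sodium, calcium, glutamate, GABA and glycine families, and those of the kainate family were all below it. The 8 below the lower line were KCNT2, KCNN3, KCNK10, KCNH1, CACNA2D4, GRIA1, GABRG3 and GLRA2.

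**Figure D4:**
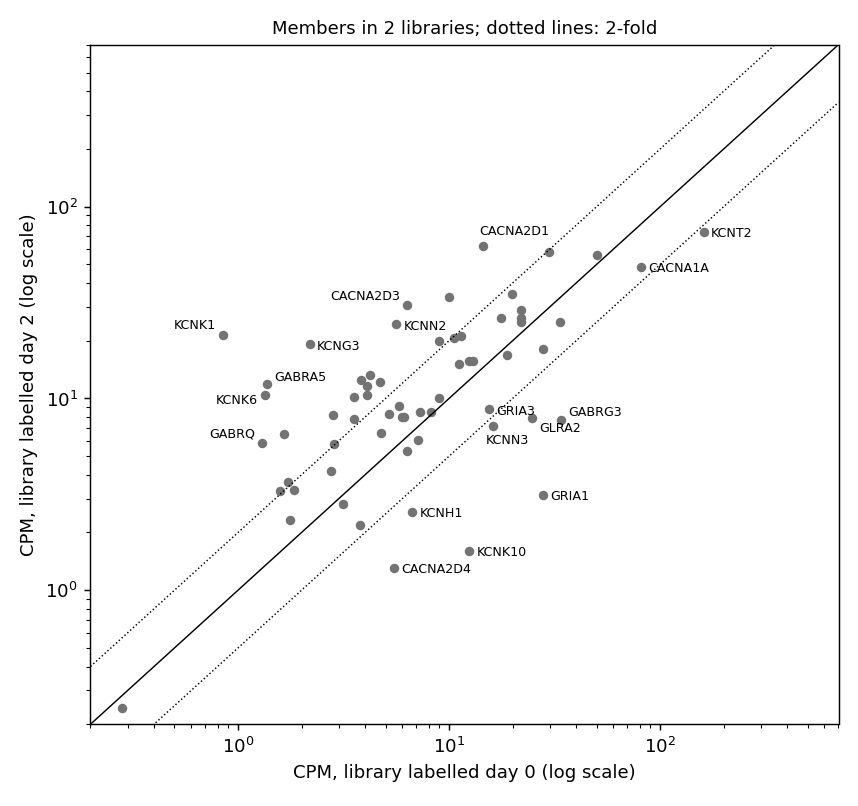
Level in CPM of 63 measured members in the day-0-labelled library (horizontal, log scale) and the day-2-labelled one (vertical, log scale), 1 point per gene; the solid line marks equal levels and the dotted lines 2-fold. Names are given for the genes with the interval farthest from 1, with KCNK1 and KCNG3 far above the lines and GRIA1 and KCNK10 far below.

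A few cells of a library clustered with cells of another, 3, 39 and 148 in the order of the labels. Leaving them out lost no call of these 68 members at 2-fold and added 1, GLRA1, whose level in the day-6-labelled library over the day-0-labelled one went from 1.99-fold to 2.01-fold. It moved 2 ratios by more than 1.5 times, among them KCNK10, which went to 12.5, 1.52 and 1.87 CPM. Its level in the day-6-labelled library was then 6.68-fold lower (5.19 to 8.69) than in the day-0-labelled one, from 4.19-fold lower (3.40 to 5.19) with these cells. GRIA1 went to 28.0, 2.69 and 3.92 CPM. Of the 236 UMIs of GRIA1 in all kept cells of the day-6-labelled library, 1 cell held 35. In the 86 cells labelled day 6 that fell in the main cluster of the day-0-labelled library, GRIA1 stood at 75.1 CPM and KCNK10 at 44.3 CPM. In the 1790 and 2232 cells of the main clusters of labelled day 6 they stood at 3.81 and 2.41 CPM (GRIA1) and 2.07 and 0.753 CPM (KCNK10). The clusters were made from these same counts, so such levels are a description.

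Every kept cell was then thinned to 1000 UMIs, with no cell left out, to compare shares of cells with a UMI across depths. The share of thinned cells with a KCNT2 UMI was 12.3% (11.0 to 13.7), 2.94% (2.30 to 3.69) and 3.85% (3.29 to 4.48), against 57.3, 20.9 and 28.8% at full depth. For CACNA2D1 it was 1.35% (0.922 to 1.92), 3.51% (2.82 to 4.33) and 4.16% (3.58 to 4.81), against 12.8, 19.8 and 28.4%. Both genes had their highest thinned share in the library where their CPM was highest. In place of a cell type that lacks the genes, 13 genes of tissues outside the culture served as a background. Their highest thinned share was that of ACTA1, 1.57, 0.785 and 1.63%, or 7.34, 4.75 and 7.82% unthinned, and the next were 0.131% (MYH6), 0.0827% (ALB) and 0.120% (MYH6). The median of the 13 was 0, 0.0413 and 0%. Of the 68 members 14, 33 and 20 lay above ACTA1, and 58, 66 and 68 above the next gene. The members were chosen for reaching 5 CPM in a library, and the outside genes were not. Their place above the next gene was thus largely set by that choice and is no evidence of detection. CACNA2D1 in the day-0-labelled library lay below ACTA1 and above the next. KCNA5 lay below ACTA1 in all 3 libraries, at 2, 1 and 37 thinned cells, and in the day-6-labelled one at 0.885% above the next outside gene.

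Within every library the members were lower in cells with few mitochondrial UMIs. Kept cells with under 5% numbered 463, 1185 and 1648, or 20.2, 49.0 and 39.4%. The median log2 ratio of these cells over those with at least 5% was -1.21, -1.41 and -0.96 for the 43, 56 and 59 members at 5 CPM or more in the library, and 0.02, 0.04 and 0.05 for all genes at that level. Lower by 2-fold or more were 27, 33 and 28 members and at least 2-fold higher 0, against 14.1, 16.0 and 10.7% and 1.10, 0.636 and 0.287% of all genes. KCNT2 stood at 48.1 and 169 CPM in cells of the day-0-labelled library with under and with at least 5%. CACNB3 stood at 39.3 and 27.1 CPM, 23.9 and 16.1 CPM and 48.3 and 40.4 CPM in the same 2 kinds of cells of the 3 libraries, and so was higher where mitochondrial UMIs were few.

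Depth and gene length moved with this split. The cells with few mitochondrial UMIs had medians of 2768, 3170 and 2480 UMIs, the others 11763, 5904 and 8795. For all genes that span 300 kb or more, from first to last annotated base, the median log2 ratio was -1.04, -1.28 and -1.06. For genes under 20 kb it was 0.34, 0.36 and 0.28. For the members the medians were -1.51, -1.92 and -1.55 at 300 kb or more, over 24, 27 and 26 genes, and 0.41, 0.18 and 0.05 under 20 kb, over 4, 6 and 8 genes. The nuclear RNA MALAT1 stood at 1754 and 4280 CPM in the 2 kinds of cells of the day-0-labelled library, 406 and 930.3 CPM in the day-2-labelled one, and 562 and 651 CPM in the day-6-labelled one. Of 93 calls at 2-fold among the members, 15 were lost among cells with at most 10% mitochondrial UMIs, and 17 of 92 among those with under 5%. The part of these differences in the levels of the members was not tested.

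**Figure D5:**
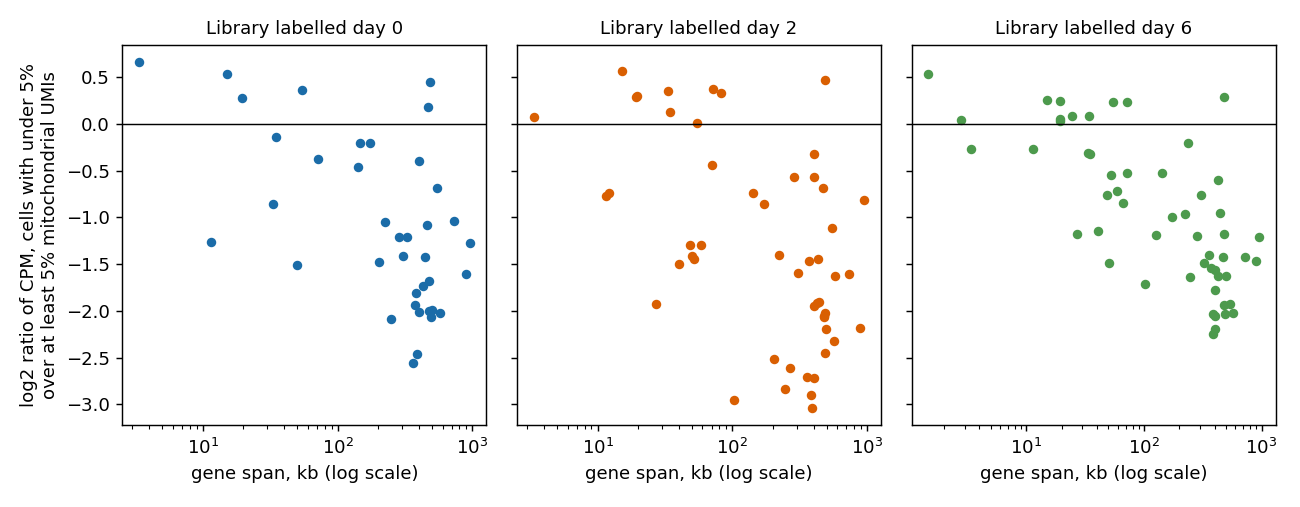
Log2 ratio of CPM in kept cells with under 5% over those with at least 5% mitochondrial UMIs (vertical). The horizontal axis is gene span in kb (log scale). Each point is 1 drawn member with at least 5 CPM in the library, with 1 panel per library. CACNA2D4 has no point in the panel of labelled day 0, where it had 0 CPM in cells with under 5%. Most members that span 300 kb or more lie between -1 and -3, and those near or above 0 are mostly short genes.

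The 68 measured members were long genes, with a median span of 231 kb against 43.7 kb for the 99 others, and 43 spanned over 100 kb. Of all genes at 5 CPM in a library with a known span, 2877 spanned over 100 kb and 8810 at most 100 kb. Length was therefore set beside the comparison of libraries as well. Among all genes over 100 kb, 9.94% were at least 2-fold higher and 17.5% 2-fold or more lower in the day-2-labelled library against the day-0-labelled one, while 14 and 8 of the 43 long members were. Among genes up to 100 kb the shares were 11.9 and 7.46%, and of the 25 members 11 were higher and 0 lower. For labelled day 6 over day 0, 14 of the long members were higher and 6 lower, against 10.2 and 10.1% of all long genes, and 15 and 0 of the shorter, against 12.4 and 5.17%.

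Genes that work with these channels were described by lists chosen for their function, and the genes named are those of each list with the highest CPM unless stated. Their counts are set beside the shares of all genes, which were 11.7% higher and 10.6% lower in day 2 over day 0. Among 18 further potassium channel subunits and partners 11 were measured. In day 2 over day 0, 4 of them were higher and 0 lower by 2-fold. DPP10, a partner of Kv4 channels, stood at 29.9, 61.2 and 44.0 CPM, and KCNMB4, a subunit of the large-conductance channel, at 31.8, 61.1 and 34.9 CPM. Of 49 other ion channels 37 were measured, with 7 higher and 3 lower in the same comparison. The mitochondrial porins VDAC2 and VDAC1 stood at 197, 325 and 219 CPM and 198, 311 and 186 CPM. The cation channel TRPC4, chosen after its values were seen, stood at 16.2, 12.5 and 115 CPM and was thus highest in the day-6-labelled library. Among 23 metabotropic receptors 10 were measured, with 4 higher and 0 lower in day 2 over day 0. The serotonin receptor HTR2C stood at 11.3, 99.6 and 7.73 CPM and the muscarinic receptor CHRM3 at 18.2, 38.3 and 14.98 CPM, both highest in the day-2-labelled library.

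Scaffolds hold receptors at synapses, and pumps and cotransporters keep the ion gradients. Of 35 scaffold and auxiliary genes 33 were measured, with 3 higher and 3 lower in day 2 over day 0. The calmodulin gene CALM2, whose product binds many channels, stood at 479.9, 479.7 and 404 CPM. NLGN1, a synaptic adhesion gene, stood at 285, 94.1 and 81.7 CPM, so here the day-0-labelled library was highest. Of 14 pump and chloride cotransporter genes 13 were measured, with 2 higher and 1 lower. The sodium pump subunit ATP1B3 stood at 285, 388 and 265 CPM. Of 18 genes for transmitter synthesis and transport 6 were measured, with 0 higher and 0 lower. GLUL, which makes glutamine, stood at 205, 179 and 212 CPM.

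All 14 genes of the REST complex, which represses neuronal channel genes in other cells, were measured. Of these, 0 were past 2-fold in either direction for day 2 over day 0, against 11.7% higher and 10.6% lower of all genes. The same held for day 6 over day 2, against 9.02% and 7.59% of all genes. For day 6 over day 0, 3 were higher and 0 lower, against 12.2% and 7.03% of all genes. The deacetylase HDAC2 stood at 293, 371 and 274 CPM and the phosphatase CTDSPL at 113, 75.1 and 90.6 CPM.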

How the data were processed

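The authors deposited, for each of the 3 libraries, whole-number counts for every gene symbol and barcode, read here as UMI counts, though whether duplicate reads were collapsed is not stated in the sources used here. The submitters' processing notes list STAR and hg38 without a version. Annotation, strand setting and barcode filter were not given in any source used here. Every deposited barcode had at least 100 genes.

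Kept cells had 1000 or more UMIs, 500 or more genes and a mitochondrial share up to 25%, and UMIs were summed per library. Ratios of CPM have exact conditional binomial 95% intervals, levels exact Poisson and shares exact Clopper-Pearson intervals. With 1 library per labelled day no test was possible; a gene was called at 2-fold, with 3 UMIs in place of 0. Genes at 3 UMIs or fewer in both libraries were not compared. The named genes were the up to 6 highest members of each family and the 10 highest and lowest of each comparison by whichever interval bound was nearer 1; further members named by their low level were chosen after their values were seen. The members and lists were chosen with earlier results of these data known. One symbol each of the crest, mesoderm and outside-tissue lists was not found.

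Cells were clustered with scanpy 1.11.5 (10000 UMIs, 2000 variable genes, 30 components, 15 neighbours, Leiden resolution 0.5, igraph 0.11.9) and scored for doublets with scrublet, which marked 5, 0 and 0 cells. Whether so few marks miss doublets was not tested, and doublets were kept. Leaving out the cells with the highest 5% of doublet scores lost 0 of the 93 calls at 2-fold. Of the 68 measured members 27 share exonic bases with another gene. Interval code was tested on simulated data. No protein sequence was used here. Some genes that the rule names are not reported here; they stay in the counts and sums but are not drawn in the plots of single genes, and 1 family is not drawn in the plot of family sums.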

Additional observations from a re-analysis of the deposited data

Results flagged for a closer look

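The barcodes that the cell filter left out, 9001, 9904 and 11893 in the order of the labels, held 4490232, 11379154 and 10224487 UMIs that enter no comparison. Mitochondrial genes gave 29.7, 36.8 and 31.0% of these UMIs. In them 3 members reached 5 CPM that did not do so in the kept cells of the same library. The same count was not taken over all genes, so it cannot be read as particular to channel genes. GABRB1, a beta subunit of GABA-A receptors, stood at 7.79 CPM (35 UMIs) in those of the library labelled day 0, against 3.74 CPM in its kept cells. CACNA1H, a T-type calcium channel, stood at 5.10 CPM (58 UMIs) in those of the library labelled day 2, against 3.88 CPM, and CACNB1 at 5.54 CPM (63 UMIs), against 4.17 CPM. Summed over all members, the left-out barcodes held 781, 1613 and 1018 CPM, less than the 1095, 1883 and 1485 CPM of the kept cells. Members already at 5 CPM could differ more than these 3. CACNA1E, chosen after its values were seen, stood at 48.5, 73.9 and 43.7 CPM in the left-out barcodes. In the kept cells it stood at 21.8, 26.2 and 20.9 CPM.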

How the results depend on the processing

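No paired analysis was possible because there was 1 library per labelled day. Nor could a replicate be left out. The counts of members higher and lower were recomputed with other filters on cells, other scalings, other minimum levels and other folds. The shares in parentheses are those of all genes compared under the same setting. With at most 10% mitochondrial UMIs, 14 of the 66 members then at the minimum level were lower in day 2 over day 0 (16.7%). Under 5% mitochondrial UMIs, an alternative chosen after seeing the data, 28 members reached 5 CPM in the library labelled day 0 (33.5% of all symbols) and 36 in that labelled day 2 (34.6%), and 6 of 55 were lower in day 6 over day 2 (7.17%). With a minimum of 10 CPM, 8 of 50 were higher in day 6 over day 2 (8.39%), and with 2 CPM 17 of 93 were lower (9.96%). Without a minimum 166 members had a UMI. Of these, 47 were higher and 18 lower in day 2 over day 0 (18.2 and 13.3%). In day 6 over day 2 they were 24 and 40 (11.3 and 16.7%), and in day 6 over day 0 they were 47 and 22 (16.1 and 13.4%). At 1.5-fold, 22 of 68 were higher and 17 lower in day 6 over day 2 (21.2 and 14.95%), and 11 lower in day 6 over day 0 (15.4%). At 3-fold, 15 of 68 were higher and 5 lower in day 2 over day 0 (6.50 and 4.07%), 6 higher in day 6 over day 2 (3.08%), and 17 higher in day 6 over day 0 (5.22%). Another minimum changes which members are counted, and another fold changes only the limit set on their ratios. For the cell filters the cause was not tested.

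Among the ratios called at 2-fold, those of 3 genes turned. For CACNB4, day 2 over day 0 was 0.815 at most 10% and 0.770 under 5% mitochondrial UMIs. For GLRA1 it was 0.987 and 0.415. For GLRA2, day 6 over day 2 was 1.09 under 5%. Ratios short of 2-fold could turn as well and were not counted. KCNH7, at 8.26, 8.48 and 10.6 CPM in all kept cells, stood at 9.29, 5.83 and 4.32 CPM under 5%. Of the 93 calls, TMM and median-of-ratios factors lost 3 each, averaging CPM over single cells 13, all deposited barcodes 3, and leaving out cells with a barcode shared between libraries, also chosen after seeing the data, 1. The lost calls under TMM and median-of-ratios factors were close to 2-fold. Genes with a few UMIs in a library, such as KCNA5, have ratios limited by depth.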
